A study of Mus musculus with 36 samples.

Results

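Small RNAs of the prostate were compared between A537T and wild type (WT) mice at 30 weeks of age, over every miRNA whose normalised count averaged 10 or more in the 6 libraries of the comparison. Of the 1963 miRNAs in the table, 548 met this limit, 780 had reads but fell below it and 635 had no read in any of the 6 libraries. Just inside the limit were miR-1934-5p, with a mean of 10.24, and miR-669e-5p, with 10.28, and just outside it miR-465c-5p, with 9.95, and miR-3064-3p, with 9.92. A normalised count is the number of reads of a miRNA divided by the size factor of its library, a scaling constant that puts the libraries on a common depth.

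The 3 A537T libraries (genotype label ELAC2A537T) and the 3 WT libraries (ELAC2+/+) came from the ventral and lateral lobes of male mice of 30 weeks, on the background labelled C56NL/6N, without the TRAMP transgene and without treatment. A537T is a homozygous knock-in of a threonine codon made by CRISPR-Cas9 and is carried by every cell of the body, so the stroma, vessels and blood within the lobes carried it as well as the epithelium. The WT mice were littermate- and age-matched. The series holds 36 libraries in 12 groups of 3, and 3 further comparisons of it are used below: A537T with WT at 10 weeks, A537T-TRAMP with WT-TRAMP at 30 weeks, and the KO line at 30 weeks (ELAC2-/-, with *Elac2* deleted by a Cre driven by the prostate-specific probasin promoter). TRAMP mice carry the SV40 T antigens, heterozygous, under the same promoter and develop prostate tumours. Libraries are named here by the number in the column headers, which give neither group nor replicate: libraries 19, 20 and 21 stand in the tables of both mutant lines and were taken as WT, and libraries 25, 26 and 27 stand only in the A537T table. The *Elac2* transcript is not measured by these libraries, so the genotypes could not be checked on it.

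ELAC2, an endoribonuclease, removes the 3′ trailer of precursor tRNAs, in the nucleus and in mitochondria. Most miRNAs come from hairpins that Drosha and Dicer cut, and each hairpin can yield a 5p and a 3p arm. The seed of a miRNA, its bases 2 to 8, pairs with target mRNAs, and miRNAs with the same seed form a family. Many miRNAs mark a cell type: miR-142, miR-223 and miR-150 belong to blood leukocytes, the miR-200 family to epithelium, miR-143 and miR-145 to smooth muscle, miR-199 and miR-214 to fibroblasts and miR-126 to endothelium. The prostate lobe is a gland of secretory and basal epithelium in a stroma of smooth muscle and fibroblasts with vessels. In RNA of whole lobes, more cells of a type and more RNA per cell cannot be told apart.

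The mature sequences below, from the RefSeq annotation of GRCm38, are those of the miRNAs on which the comparison turned, with the seed in capitals. The first set is of leukocyte miRNAs, shown because both arms of the miR-142a hairpin had the smallest p-values of the comparison.
miR-142a-5p: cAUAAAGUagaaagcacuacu
miR-142a-3p: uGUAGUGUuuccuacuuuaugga
miR-223-3p: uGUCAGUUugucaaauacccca
miR-146a-5p: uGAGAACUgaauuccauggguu

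Next are 4 members of the miR-17 family and 4 of the miR-15/16 family, shown because each family shares its seed and all 8 were higher in A537T.
miR-17-5p: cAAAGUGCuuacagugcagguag
miR-20a-5p: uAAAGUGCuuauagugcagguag
miR-93-5p: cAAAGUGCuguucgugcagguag
miR-106b-5p: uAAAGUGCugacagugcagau
miR-15a-5p: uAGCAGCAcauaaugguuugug
miR-15b-5p: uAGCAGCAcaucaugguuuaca
miR-16-5p: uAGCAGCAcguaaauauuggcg
miR-195a-5p: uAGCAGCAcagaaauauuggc

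The miRNAs that split the A537T libraries among themselves follow. miR-10a and miR-10b share a seed, as do miR-465b and miR-465c.
miR-10a-5p: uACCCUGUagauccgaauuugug
miR-10b-5p: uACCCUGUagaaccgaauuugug
miR-135a-5p: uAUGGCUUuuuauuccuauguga
miR-881-3p: aACUGUGUcuuuucugaauaga
miR-470-5p: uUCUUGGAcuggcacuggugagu
miR-465b-5p: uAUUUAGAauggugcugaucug
miR-465c-5p: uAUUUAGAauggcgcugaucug

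The last set is of miRNAs that were lower in A537T and whose hairpins overlap a small nucleolar or Cajal body RNA gene, RNAs that guide the modification of other RNAs.
miR-3535: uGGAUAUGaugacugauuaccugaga
miR-1291: aUGGCUCUuacugaagacuagcaguu
miR-664-5p: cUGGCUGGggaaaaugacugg
miR-1843b-5p: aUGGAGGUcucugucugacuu

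The 6 libraries held between 13647537 and 21870210 reads of miRNAs and detected between 922 and 1055 miRNAs each, with 66 to 70.2% of the reads in the 10 most abundant. Replicates did not lie close together in each group. On log2 normalised counts of the 548 miRNAs, WT libraries 20 and 21 correlated at 0.994 and A537T libraries 25 and 27 at 0.994. WT library 19, in contrast, correlated best of the 6 with A537T library 26, at 0.986, and less with its own group, at 0.956 and 0.968. The first principal component, with 55.4% of the variance, placed libraries 19 and 26 at 17 and 14.1 and the other 4 libraries between -9.94 and -5.69. The second, with 27.6%, separated WT libraries 20 and 21, at -9.31 and -9.83, from A537T libraries 25 and 27, at 8.31 and 10.8, with libraries 19 and 26 near 0 (-0.0126 and 0.0863). Among 34 other libraries of the series, over 500 miRNAs, library 19 was nearest to KO library 23, at 0.994, and library 26 nearest to library 19, at 0.989. The epithelial miR-200 family made up 5.38 to 9.74% of the reads in every library, and the smooth muscle miRNAs miR-143 and miR-145a 13.1 to 26.7%. Libraries 19 and 26 had the smallest shares of the smooth muscle miRNAs, 13.1% and 16.3%, and of miR-126a, 0.585% and 0.723%, against at least 20.3% and 1.08% in the others. The part of tissue composition in the position of these libraries was not tested.

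**Figure D1:**
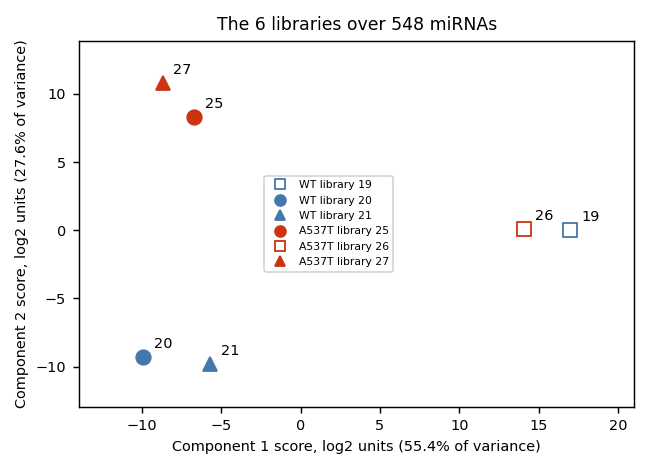
Scores of the 6 libraries on the first and second principal component of log2(normalised count + 1) over 548 miRNAs, in log2 units; each point is 1 library and open symbols mark libraries 19 and 26. Libraries 19 and 26 sit at 17 and 14.1 on the first component, away from the other 4, and the second component holds WT libraries 20 and 21 at -9.31 and -9.83 and A537T libraries 25 and 27 at 8.31 and 10.8.

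No miRNA passed the adjusted test between A537T and WT at 30 weeks. By limma with Benjamini-Hochberg adjustment, 0 of the 548 miRNAs (0%) passed an adjusted p of 0.05, and the smallest adjusted p was 0.159. At an unadjusted p under 0.05, 33 miRNAs were higher in A537T (6.02%) and 11 lower (2.01%), and their adjusted p ranged from 0.159 to 0.613. With each library scaled to its total, these counts were 18 and 12, and all 33 and all 11 kept their direction. edgeR's quasi-likelihood test on the recovered reads called 0 miRNAs, with 50 at an unadjusted p under 0.05, and DESeq2 called 5. Over all 548, 252 were higher and 296 lower in A537T, with a median log2 fold change of -0.04, and 19 were higher and 21 lower by more than 1 on the log2 scale. All 3 A537T libraries lay above all 3 WT libraries for 51 miRNAs (9.31%) and below them for 26 (4.74%). Of the 33 higher miRNAs 29 were separated in this way, and of the 11 lower miRNAs 10. Both sets were picked by p on the same libraries, so neither this separation nor the kept direction is further support. With 3 libraries against 3, an exact two-sided permutation test of a single miRNA cannot give a p below 0.1.

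A537T library 26 lay close to WT library 19 only, at 0.986 over the 548 miRNAs. With WT libraries 20 and 21 it correlated at 0.963 and 0.969, against 0.979 and 0.977 for A537T library 25. For most miRNAs at an unadjusted p under 0.05, however, library 26 was the A537T library nearest to WT. It was the lowest of the A537T libraries for 25 of the 33 higher miRNAs and the highest for 9 of the 11 lower ones. Without it, limma called 13 of 547 miRNAs (2.38%): miR-135a-5p, both arms of miR-10a, miR-10b and miR-142a, miR-20a-5p and 4 miRNAs of an X-linked cluster were higher, and miR-3535 was lower. The 4 X-linked miRNAs met the limit of 10 only through A537T libraries 25 and 27, and miR-465c-5p only once library 26 was left out. These 4 calls thus rest on a filter that the same values decided, which leaves 9 others. The 9 others depend in turn on leaving out library 26. They include miR-135a-5p, miR-10a-5p and miR-10b-5p, for which library 26 lay within or below the WT range. Their adjusted p therefore omits part of the spread of the A537T replicates. Leaving out any other of the 6 libraries called 0 miRNAs. Without both library 19 and library 26, which were chosen because they stand apart, 223 of 553 miRNAs (40.3%) passed, 2 libraries against 2.

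**Figure D2:**
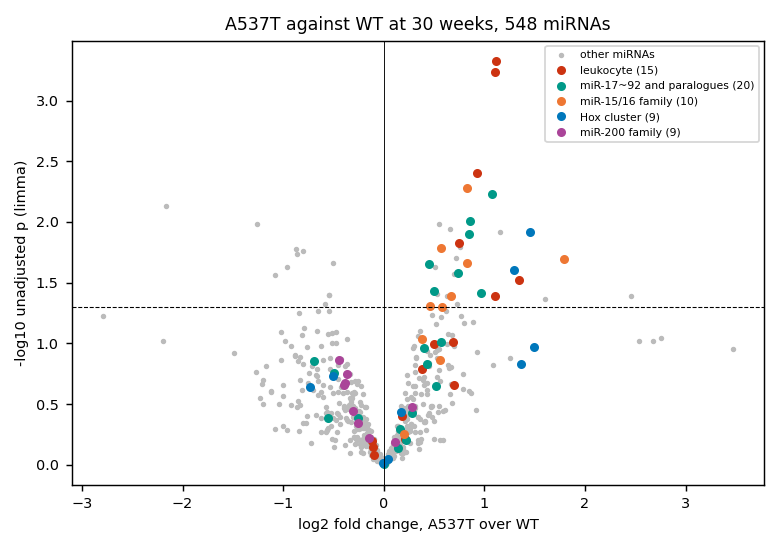
Unadjusted limma p (as -log10) against the log2 fold change of A537T over WT for 548 miRNAs; each point is 1 miRNA, coloured by list, and the dashed line is an unadjusted p of 0.05. Leukocyte, miR-17-92 and miR-15/16 miRNAs lie mostly to the right, while the miR-200 family lies near 0.

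Of the leukocyte miRNAs, 12 of 15 had higher means in the A537T prostates, 6 at an unadjusted p under 0.05 and 0 after adjustment, and both arms of miR-142a had the smallest p-values of all miRNAs. miR-142a is made by blood cells of all lineages and comes from Mir142 (chr11:87756864-87756927, + strand, GRCm38), in an intron of the long noncoding RNA Mir142hg. The normalised count of miR-142a-5p was 1877, 1742 and 1804 in WT libraries 19, 20 and 21 and 3895, 4602 and 3416 in A537T libraries 25, 26 and 27. miR-142a-3p counted 468, 577 and 514 in WT and 1169, 1032 and 1170 in A537T. Neither arm overlapped between the groups, and library 26 stood with the other A537T libraries, in contrast to its place in the component plot. The 5p arm was 2.18-fold higher (log2 fold change 1.12 ± 0.19 SE, limma adjusted p = 0.159) and the 3p arm 2.17-fold (1.11 ± 0.19, 0.159). Fold changes here and below come from log2(normalised count + 1).

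miR-223-3p, a miRNA of neutrophils and other myeloid cells (Mir223, chrX:96242817-96242926, + strand), counted 227, 302 and 300 in WT and 543, 461 and 571 in A537T, 1.90-fold higher (log2 0.93 ± 0.22 SE). miR-150-5p, of mature lymphocytes, counted 1298, 1607 and 1071 in WT and 2652, 2218 and 1827 in A537T (0.75 ± 0.24). Every A537T library exceeded every WT library for both miRNAs. miR-146a-5p, which NF-kappaB induces in immune and epithelial cells (Mir146, chr11:43374397-43374461, - strand), had 28485, 23431 and 24601 in WT and 51111, 148845 and 34780 in A537T. The groups did not overlap, but library 26 was more than the sum of the other 2 A537T libraries, and the log2 fold change of 1.34 ± 0.50 became 0.73 without it. miR-511-5p, of macrophages, was near the limit of the filter, with 9.79, 8.15 and 6.28 in WT and 13.9, 16.7 and 26.7 in A537T. miR-155-5p, of activated lymphocytes and macrophages, had 470, 809 and 626 in WT and 751, 871 and 810 in A537T, and its groups overlapped (0.38). The abundant members miR-146b-5p (mean 10101, log2 -0.12) and miR-342-3p (mean 2818, 0.18) lay near 0. The members that were lower were miR-146b-5p, miR-342-5p (-0.11) and miR-147-3p (-0.10). All of these overlapped between the groups.

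The median log2 fold change of the 15 leukocyte miRNAs was 0.69, against -0.04 over all 548. Their 6 at an unadjusted p under 0.05, beside 6.02% of all miRNAs, became 4 with scaling to the total, and 1 of the 6, miR-511-5p, had a WT mean under the limit of 10 and was tested only through its A537T values. Summed over the list, the share of reads was 0.252, 0.317 and 0.292% in WT and 0.445, 1.21 and 0.306% in A537T, so the summed share of library 27 lay within the WT range, and miR-146a-5p made up most of the share in library 26. Red cell miRNAs were also higher, 6 of 6, with 1 at an unadjusted p under 0.05: miR-144-5p counted 46.8, 82.4 and 56.5 in WT and 116, 87.7 and 101 in A537T. The abundant red cell miRNA miR-451a, however, counted 1960, 3785 and 3034 in WT and 2956, 3103 and 3079 in A537T (log2 0.11 ± 0.26) and overlapped, and the share of the list was 0.0332, 0.0842 and 0.0708% in WT and 0.121, 0.0443 and 0.153% in A537T. The part of blood left in the tissue in the leukocyte values was not tested.

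**Figure D3:**
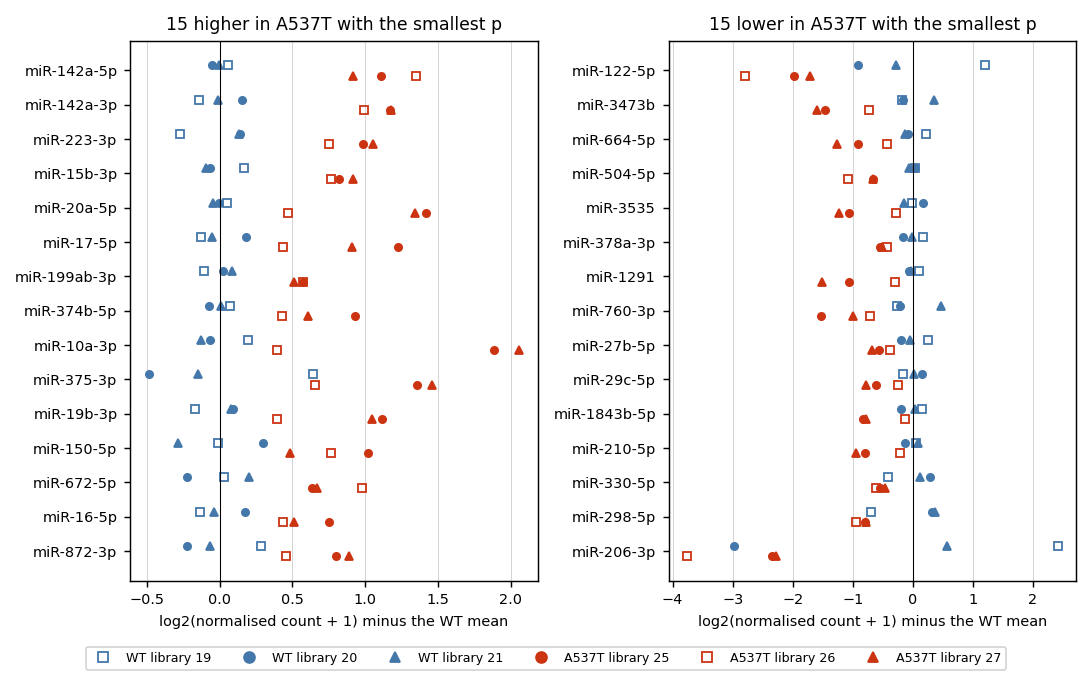
log2(normalised count + 1) minus the WT mean for the 15 miRNAs higher (left) and the 15 lower (right) in A537T with the smallest p, 1 symbol for each library, open symbols for libraries 19 and 26. Both arms of miR-142a show 3 A537T libraries near 1 above the WT mean, while for miR-20a-5p and miR-10a-3p library 26 lies closer to WT than libraries 25 and 27.

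The miR-17 family is a group of miRNAs that promote proliferation and are activated by MYC and E2F. It had 4 of 6 members with higher means in A537T, each at an unadjusted p under 0.05 (6.02% of all miRNAs), and 0 after adjustment. miR-20a-5p counted 1830, 1762 and 1711 in WT and 4733, 2447 and 4476 in A537T, 2.11-fold higher (log2 1.08 ± 0.28 SE). miR-17-5p counted 1323, 1644 and 1400 in WT and 3398, 1963 and 2726 in A537T, 1.81-fold higher (0.86 ± 0.25). In both, library 26 exceeded all WT libraries but was the lowest of the A537T libraries. Of all miRNAs, 9.31% had every A537T library above WT. Beside them miR-19b-3p counted 305, 366 and 361 in WT and 744, 451 and 710 in A537T (0.85 ± 0.26), and miR-92a-3p 9248, 8495 and 8758 in WT and 12200, 11620 and 12497 in A537T. These 4 come from the Mir17 to Mir92-1 cluster (chr14:115043671-115044506, + strand, host gene Mir17hg). Of its miRNAs 9 of 10 were higher, 5 at an unadjusted p under 0.05 against 6.02% of all miRNAs, with a median log2 fold change of 0.51. The mature miR-19b and miR-92a are also made from the Mir363 to Mir106a cluster on the X chromosome and could not be assigned to either.

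The Mir25 to Mir106b cluster lies within Mcm7, a replication gene (chr5:138165321-138165818, - strand), with Mir106b in an intron and Mir25 and Mir93 overlapping annotated exons, and all 6 of its miRNAs were higher. miR-106b-5p counted 596, 952 and 693 in WT and 1544, 1193 and 993 in A537T, and miR-93-5p 6037, 5125 and 4862 in WT and 8521, 6331 and 7811 in A537T. Both had 3 A537T libraries above all of WT. The X-linked paralogues with the same seed lay the other way: miR-20b-5p counted 1040, 613 and 716 in WT and 499, 801 and 414 in A537T, and miR-106a-5p 297, 197 and 201 in WT and 204, 237 and 142 in A537T. Their groups overlapped. Of the 6 miRNAs tested with the seed AAAGUGC, 4 were higher at an unadjusted p under 0.05 and these 2 were lower. With scaling to the total, 2 of the seed's miRNAs were higher at that p. Over the whole list of the cluster and its paralogues, 15 of 20 were higher, 7 at an unadjusted p under 0.05 against 6.02% of all miRNAs, with a median log2 fold change of 0.42. With scaling to the total the 7 became 4.

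All tested arms of the miR-15/16 hairpins, 5p and 3p together, were higher, 10 of 10, although this family restrains the cell cycle through cyclins and BCL2. The median log2 fold change was 0.57, with 6 at an unadjusted p under 0.05 (6.02% of all miRNAs) and 7 without overlap between the groups (9.31% of all). With scaling to the total the 6 became 3. Arms of the same hairpin share a transcript, and the 3p arms lack the seed of the family. Of the 6 miRNAs tested with the seed AGCAGCA, which include miR-322-5p, 6 were higher, 4 at an unadjusted p under 0.05. With scaling to the total these 4 became 1. miR-16-5p, the most abundant member of the family, counted 7776, 9610 and 8304 in WT and 14385, 11526 and 12126 in A537T, 1.48-fold higher (log2 0.57 ± 0.18 SE). miR-15b-3p, the passenger arm of miR-15b, counted 186, 158 and 155 in WT and 293, 283 and 314 in A537T, 1.78-fold higher (0.83 ± 0.21), with close replicates in both groups. The Mir15b to Mir16-2 cluster (chr3:69009772-69009996, + strand), within an intron of Smc4, a condensin gene, had 4 of 4 miRNAs higher, each at an unadjusted p under 0.05 and each without overlap. Its scarcest member, miR-16-2-3p, counted 5.44, 22.6 and 29.3 in WT and 62.8, 47 and 61.8 in A537T, and its log2 fold change of 1.79 became 1.11 without library 19. miR-15a-5p, from the Mir16-1 to Mir15a cluster (chr14:61631880-61632096, - strand), counted 312, 434 and 335 in WT and 647, 672 and 418 in A537T, which overlapped. The mature miR-16-5p is made from both clusters.

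miR-10a, miR-10b and miR-135a split the A537T libraries. Mir10a lies among the Hoxb genes (chr11:96317165-96317274, + strand) and Mir10b in introns of Hoxd3 and Hoxd4 (chr2:74726070-74726137, + strand), and like the Hox genes beside them they are expressed by position along the body axis. miR-10a-5p counted 158610, 128163 and 131245 in WT and 430919, 157619 and 569707 in A537T, 2.44-fold higher (log2 1.29 ± 0.45 SE). Libraries 25 and 27 had more than the sum of any 2 WT libraries, and library 26 fell below WT library 19, so the groups overlapped. Its 3p arm counted 1074, 898 and 859 in WT and 3483, 1235 and 3923 in A537T and did not overlap (1.45 ± 0.43, 2.73-fold). miR-10b-5p had 43715, 71965 and 64288 in WT and 287315, 39308 and 395438 in A537T, with library 26 below every WT library (1.49 ± 0.81, limma adjusted p = 0.679). Without library 26 these values were 1.84 for miR-10a-5p and 2.52 for miR-10b-5p (limma adjusted p = 0.0104 for each). Both p-values leave out the A537T library that lay within or below the WT range. Over all alternatives the adjusted p of miR-10b-5p ran from 1.45e-35 to 0.986. The lowest came from the limma fit without libraries 19 and 26, chosen because they stand apart. With 2 libraries against 2, it is no measure of the spread of the replicates. The next lowest was the 0.0104 without library 26.

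miR-135a-5p, which represses the WNT regulator APC, showed the same split at a larger size. It counted 86, 114 and 84.7 in WT and 1312, 86.7 and 1245 in A537T (log2 2.46 ± 0.99 SE, 5.51-fold, limma adjusted p = 0.562), so that library 26 lay within the WT range. Without library 26 it was higher by 3.75 on that scale (limma adjusted p = 0.003), a p that leaves out the A537T library at the WT level. Over all alternatives the adjusted p ran from 3.49e-46 to 0.986. The lowest again came from the limma fit of 2 libraries against 2, without libraries 19 and 26, and is no measure of the spread. The next lowest was 0.00265, with DESeq2. The mature arm is made from Mir135a-1 (chr9:106154124-106154213, + strand) and Mir135a-2 (chr10:92072086-92072185, - strand, in an intron of Rmst). The 3p arm that only Mir135a-2 makes counted 5.44, 1.81 and 0 in WT and 34.3, 1.04 and 48.5 in A537T, again with library 26 at the WT level. Such a spread within a group also occurred elsewhere in the series: in reads scaled to the library total, the highest library exceeded the lowest 13.7-fold in A537T, 23.9-fold in KO at 30 weeks, 29-fold in WT at 10 weeks and 20.8-fold in WT-TRAMP at 30 weeks, but 1.87-fold in WT at 30 weeks.

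The 3 A537T libraries parted in the same way over a cluster of miRNAs best known from testis on the X chromosome (chrX:66776757-66839125, - strand), whose 19 genes encode 32 of the miRNAs listed. This cluster was chosen after its values were seen. Library 25 had reads of 21 of the 32 (432 reads) and library 27 of 22 (325 reads), while library 26 had 0 reads, and 3 reads, the limit that a count of 0 allows, would be 2.16e-05% of its reads. WT libraries 19, 20 and 21 held 1, 9 and 3 reads. miR-881-3p, the most abundant, counted 0, 5.43 and 1.05 in WT and 117, 0 and 150 in A537T. miR-470-5p counted 0, 0.906 and 1.05 in WT and 35, 0 and 32.7 in A537T, and miR-465b-5p 1.09, 0.906 and 0 in WT and 25.5, 0 and 38.8 in A537T. In the KO line of the same age the reads were 477, 0 and 321 in libraries 22, 23 and 24, so a library without reads also occurred there, and KO library 23 was the one nearest to WT library 19.

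**Figure D4:**
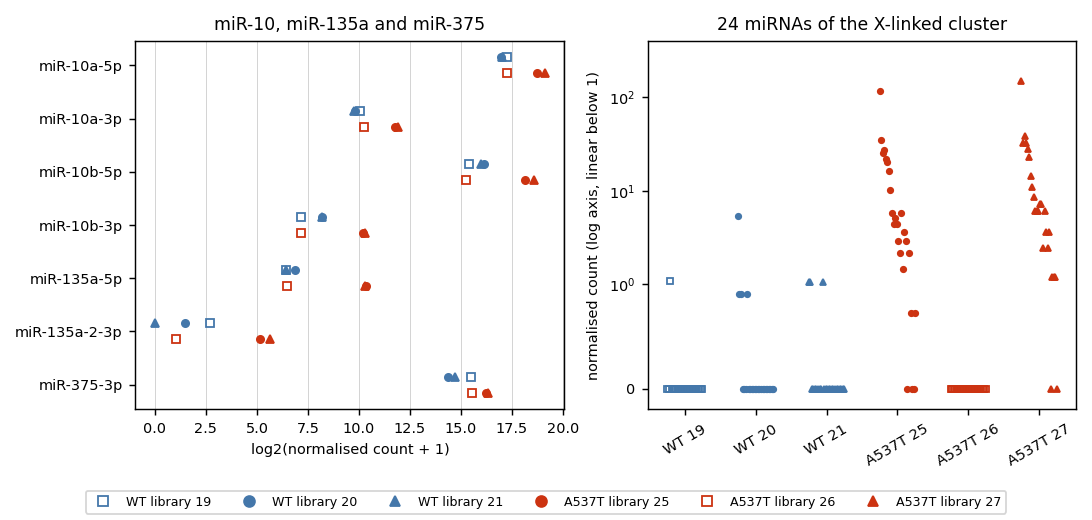
Left, log2(normalised count + 1) of the miR-10 arms, the miR-135a arms and miR-375-3p in each library; right, normalised count of 24 miRNAs of the X-linked cluster in each library, on a log axis that is linear below 1. In the left panel libraries 25 and 27 lie above WT for each miRNA and library 26 lies near the highest WT library or lower; in the right panel library 26 is at 0 throughout.

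miR-375-3p, of neuroendocrine and secretory epithelial cells, counted 46925, 21440 and 27072 in WT and 77032, 47489 and 82898 in A537T, 2.23-fold higher (log2 1.16 ± 0.35 SE). The groups did not overlap, by a small gap between libraries 19 and 26. The other miRNAs of the neural list were not higher: 6 of 7 had a negative log2 fold change, with a median over the 7 of -0.49 that was -0.08 without library 26 and -1.32 without library 19, and libraries 19 and 26 were the lowest of their groups for 4 of these 6. miR-9-5p, of neural cells, counted 2594, 14995 and 12286 in WT and 6962, 2920 and 7903 in A537T, and miR-124-3p, of neurons, 8.71, 252 and 203 in WT and 108, 20.9 and 75.1 in A537T. Both spread more within the groups than between them.

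Fibroblast miRNAs were higher, by at most 1.47-fold. miR-199a-3p and miR-199b-3p, which are identical and were summed, counted 78141, 85432 and 89367 in WT and 125468, 125161 and 120138 in A537T, 1.47-fold higher (log2 0.55 ± 0.16 SE), with no overlap and close replicates. miR-199a-5p counted 24367, 25143 and 21458 in WT and 35571, 29157 and 36439 in A537T (0.51 ± 0.18). miR-214-3p, made from the same transcript as miR-199a-2, counted 2052, 1927 and 1783 in WT and 2400, 2131 and 2147 in A537T (0.21 ± 0.17). All 5 fibroblast miRNAs tested were higher, 2 of them at an unadjusted p under 0.05, against 6.02% of all miRNAs, and 0 with scaling to the total. The smooth muscle miRNAs miR-143 and miR-145a were higher in 4 of 4 arms with 0 at an unadjusted p under 0.05: miR-143-3p, the most abundant miRNA of the libraries, had 2287724, 2940591 and 2730506 in WT and 4014813, 2216361 and 4450655 in A537T, with library 26 below all of WT. Endothelial miR-126a-3p showed the same order, with 105961, 166742 and 149095 in WT and 193716, 100914 and 219449 in A537T (0.23 ± 0.34).

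The skeletal muscle list had 7 miRNAs tested, 5 higher and 0 at an unadjusted p under 0.05. Its specific member miR-206-3p counted 2858, 67 and 793 in WT and 105, 38.6 and 109 in A537T (log2 -2.79 ± 1.25 SE), while miR-133a-3p, of skeletal and heart muscle, counted 12613, 12684 and 12220 in WT and 14188, 11398 and 13138 in A537T. miR-206-3p thus varied most among the WT libraries, and those with much of it had no more miR-133a-3p than the others.

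Of the epithelial lists, the miR-200 family was slightly lower and basal miR-205 and miR-203 slightly higher. Of the miR-200 family, which maintains epithelial identity by repressing ZEB1 and ZEB2, 7 of 9 were lower, with 0 at an unadjusted p under 0.05 and a median log2 fold change of -0.31. miR-200b-3p counted 880069, 430073 and 497808 in WT and 436659, 589968 and 384139 in A537T (-0.31 ± 0.32), and miR-200c-3p 439403, 247076 and 298642 in WT and 226059, 279097 and 207541 in A537T (-0.44 ± 0.26). WT library 19 was the highest of the 6 for both, and the family's median was -0.03 without it and -0.54 without library 26. miR-205-5p, of basal cells, counted 74267, 48095 and 51463 in WT and 64828, 64544 and 59925 in A537T (0.15). Of the 4 basal epithelial arms of miR-205 and miR-203, 3 were higher, with a median of 0.16 and 0 at an unadjusted p under 0.05. miR-148a-3p, which alone made up a large part of the reads, had 4139828, 1834240 and 2387576 in WT and 2101457, 2134341 and 2991119 in A537T (-0.14 ± 0.33), and miR-21a-5p, a miRNA of growth and inflammation, 1766924, 1192607 and 1224812 in WT and 1110875, 1511540 and 1016336 in A537T (-0.20 ± 0.25). Neither differed beyond the spread of its replicates. Of the 19 let-7 and miR-98 arms, which repress growth genes such as Lin28 and Ras, 8 were higher and 0 had an unadjusted p under 0.05, with a median of -0.01.

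Among the miRNAs lower in A537T, miR-122-5p had the smallest p. It is the most abundant miRNA of liver and is rare in other tissues. It counted 296, 67.9 and 106 in WT and 32.1, 17.8 and 38.8 in A537T, 4.45-fold higher in WT (log2 -2.16 ± 0.58 SE), and every WT library exceeded every A537T library. Library 19 held the most, and the log2 fold change was -1.56 without it. miR-378a-3p, which lies in an intron of the metabolic coactivator gene Ppargc1b, counted 54299, 42921 and 47595 in WT and 32991, 35510 and 33729 in A537T, 1.41-fold higher in WT (-0.50 ± 0.17), with the 3 A537T libraries close together and below all of WT. miR-3473b counted 56.6, 57.1 and 82.6 in WT and 22.6, 38.6 and 20.6 in A537T (-1.26 ± 0.37), and miR-504-5p, which represses p53, 103, 102 and 95.2 in WT and 62.8, 47 and 63 in A537T. Both were separated. miR-27b-5p and miR-29c-5p were lower with no overlap, at 743, 542 and 607 against 424, 480 and 390 and at 1267, 1584 and 1452 against 938, 1209 and 829, while their families as a whole had 0 other members at an unadjusted p under 0.05.

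Of the 11 miRNAs lower at an unadjusted p under 0.05 (2.01% of all miRNAs), 9 have a position in RefSeq. Of these 9, 4 come from hairpins that overlap a snoRNA or scaRNA gene. Of the 33 higher ones (6.02% of all), 30 have a position, and 0 overlap such a gene. miR-3535, encoded at the snoRNA Gm24148 within the nucleolin gene Ncl (chr1:86351981-86352127, - strand), counted 2424, 2755 and 2220 in WT and 1173, 2028 and 1049 in A537T, 1.81-fold higher in WT (log2 -0.86 ± 0.28 SE). miR-1291, at Snora34 (chr15:98519762-98519878, - strand), counted 266, 237 and 243 in WT and 118, 201 and 86 in A537T (-0.96 ± 0.34). miR-664-5p, at Snora36b (chr1:185242975-185243043, + strand), counted 370, 301 and 291 in WT and 169, 236 and 132 in A537T (-0.87 ± 0.28). In these 3 the groups were separated, with library 26 nearest to WT each time. miR-1843b-5p, at Scarna3a (chr1:159340358-159340423, + strand), counted 6067, 4793 and 5640 in WT and 3065, 5020 and 3203 in A537T and overlapped. In all, 16 miRNAs tested overlap such a gene, and 15 of them were lower, with a median log2 fold change of -0.26. Of the 467 miRNAs with a position in RefSeq, 262 were lower, with a median of -0.07. The 16 hold both arms of miR-664, miR-1843a, miR-1843b, miR-3068 and miR-3084. This group was assembled after the values were seen and was not tested. A miRNA count cannot tell a processed miRNA from a fragment of the longer snoRNA.

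In several other clusters most miRNAs lay to the same side of 0, with none at an unadjusted p under 0.05. All 9 tested miRNAs of the X-linked Mir450b to Mir322 cluster (chrX:53047997-53054349, - strand), whose miR-322 shares the seed of miR-16, were higher, with a median log2 fold change of 0.53 that was 0.26 without library 19 and 0.80 without library 26, and miR-322-5p counted 88.1, 187 and 143 in WT and 335, 150 and 298 in A537T. All 19 tested miRNAs named for the Sfmbt2 cluster were higher, with a median of 0.37 that was 0.12 without library 19 and 0.82 without library 26, and 3 of them had a WT mean under 10 and were tested only through A537T. In the imprinted cluster of chromosome 12 (chr12:109544588-109747960, 60 miRNA genes), which is expressed from the maternal allele, 52 of 59 tested miRNAs were lower, with a median of -0.45, and 0 had an unadjusted p under 0.05. Its summed share of the reads was 0.0958, 0.387 and 0.312% in WT and 0.159, 0.141 and 0.173% in A537T. WT library 19 had the smallest share of the 6 and the other WT libraries the largest, so the median was -1.03 without it, and it was -0.21 without library 26. miR-127-3p, made from this cluster, counted 7498, 21018 and 18737 in WT and 9583, 8287 and 12324 in A537T.

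Arms of the same hairpin give a second reading of each transcript. For 149 hairpins both arms had a mean of at least 10, and in 105 of them both arms lay in the same direction (Pearson r of the log2 fold changes 0.713 across hairpins, which share the libraries). The median gap between the arms was 0.236 on the log2 scale. In 3 hairpins both arms were higher at an unadjusted p under 0.05, and in 0 both were lower. Among hairpins with at least 100 in both arms, 63 of 86 had the same direction.

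At 10 weeks miR-142a showed no difference between A537T and WT beyond its error, while miR-375-3p lay the other way from 30 weeks. The A537T effect at 30 weeks minus that at 10 weeks was tested over 12 libraries, and limma called 0 miRNAs after adjustment (smallest adjusted p 0.406), with 38 at an unadjusted p under 0.05, while edgeR called 0, with 46. miR-142a-5p counted 1115, 925 and 855 in WT and 1022, 1065 and 898 in A537T at 10 weeks (log2 0.05 ± 0.22 SE), so the difference of effects was 1.08 ± 0.26. The second of these A537T libraries, library 35, stood apart in depth, with 655455 reads and 541 miRNAs detected, against 14482305 to 17625145 reads in the other 5, and its value for miR-142a-5p rests on 85 reads. Without it the difference of effects was 1.13 for miR-142a-5p and 2.83 for miR-375-3p, and 0 miRNAs were called. miR-20a-5p had -0.18 at 10 weeks and a difference of effects of 1.26, and miR-10a-3p -0.44 and 1.89. miR-375-3p at 10 weeks counted 20413, 21353 and 12878 in WT and 10371, 7791 and 2984 in A537T (-1.51 ± 0.47), with a difference of effects of 2.67 ± 0.63 and a limma adjusted p of 0.406. Its A537T libraries lay all below WT at 10 weeks and all above WT at 30 weeks. Scaling to the total moved the median difference of effects of all miRNAs from -0.00 to -0.23.

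On the TRAMP background the levels of miR-142a in A537T and WT lay close together. miR-142a-3p counted 3381, 3862 and 3685 in WT-TRAMP and 3406, 3602 and 3356 in A537T-TRAMP (log2 -0.08 ± 0.10 SE), and miR-142a-5p 6513, 9609 and 7460 and 7125, 8429 and 7781 (0.00 ± 0.16). Both arms overlapped between genotypes there. The difference of the A537T effects, TRAMP minus no TRAMP, was -1.19 ± 0.18 for miR-142a-3p with a limma adjusted p of 0.0231, the only call of 512 miRNAs (0.195%), and -1.12 ± 0.23 for miR-142a-5p with a limma adjusted p of 0.137. The call was lost without the low-count filter, with scaling to the total, without the variance trend and with edgeR, where the adjusted p was 0.0553, and in 9 of the 12 fits that left out 1 library, where the difference lay between -1.27 and -1.12 and the adjusted p between 0.0116 and 0.14. In those 12 fits it was kept only without library 19, 20 or 26. It was kept as well with a pseudocount of 10 (limma adjusted p = 0.024) and with a mean of at least 100 (limma adjusted p = 0.00817). Scaling to the total moved the median difference of effects of all miRNAs from -0.01 to 0.17. miR-223-3p was higher and miR-122-5p lower in A537T on both backgrounds. With TRAMP, miR-223-3p counted 280, 322 and 290 in WT-TRAMP and 424, 541 and 420 in A537T-TRAMP (0.63 ± 0.15), and miR-122-5p 38.9, 154 and 124 and 18.2, 36.2 and 15.8 (difference of effects 0.15). In both the groups were separated with TRAMP as without it. Without TRAMP, 9.31% of all miRNAs had every A537T library above WT and 4.74% had every one below. With TRAMP this share was not counted.

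No miRNA passed the adjusted test between A537T and KO prostates of 30 weeks. Over 532 miRNAs limma called 0 differences between the lines, with 24 at an unadjusted p under 0.05 and a smallest adjusted p of 0.889, and edgeR called 0, with 28. KO and A537T were each compared with the same 3 WT libraries, so their values are given side by side only. miR-142a-5p was 1.06 ± 0.15 in KO over WT on the log2 scale and 1.12 in A537T over WT, and the difference between the lines for miR-142a-3p was 0.11 ± 0.19. miR-10a-5p counted 487072, 143079 and 399798 in KO libraries 22, 23 and 24, with 1 library at the WT level as in A537T, and the lines differed by -0.00 ± 0.53. miR-378a-3p, in contrast, was 0.06 in KO over WT and -0.50 in A537T over WT (A537T minus KO -0.59 ± 0.17), miR-3473b differed between the lines by -1.29 ± 0.35 and miR-144-5p by 1.06 ± 0.31. All 3 had an unadjusted p under 0.05 and a limma adjusted p of 0.889. Scaling to the total moved the median of all differences between the lines from -0.02 to 0.16.

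**Figure D5:**
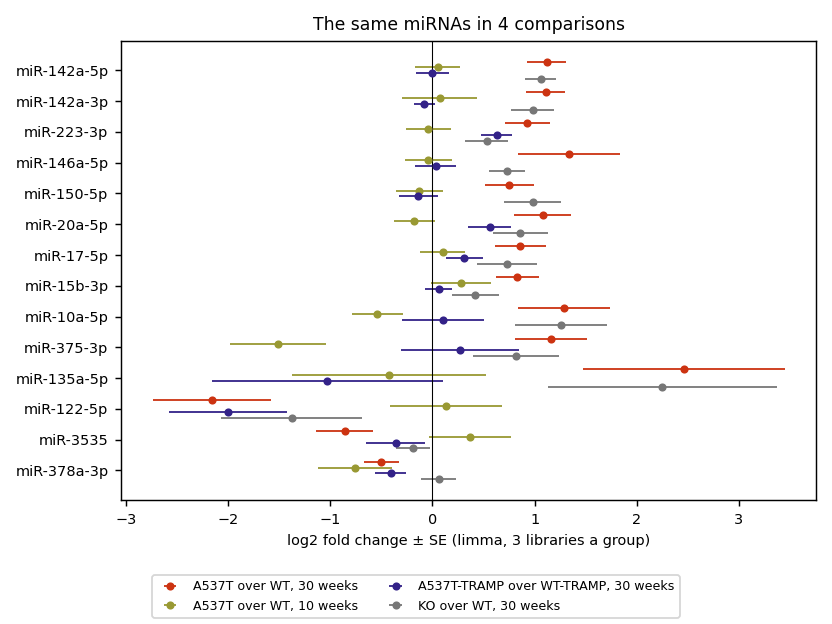
log2 fold change ± SE (limma, 3 libraries a group) of 14 miRNAs in 4 comparisons; each point is 1 miRNA in 1 comparison, and both 30-week comparisons without TRAMP share the WT libraries. Both arms of miR-142a lie near 1 in A537T and KO at 30 weeks and near 0 at 10 weeks and with TRAMP, and miR-375-3p lies at -1.51 at 10 weeks and 1.16 at 30 weeks.

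The study discusses miR-10a-5p, miR-122-5p, miR-383-5p and miR-338-3p for these lines, and miR-669c-5p and miR-676-5p for the KO-TRAMP line. The values of miR-10a-5p and miR-122-5p are given above. miR-383-5p counted 8.71, 88.8 and 72.2 in WT and 31.4, 13.6 and 40 in A537T (log2 -0.57 ± 0.89 SE), and miR-338-3p, of neural and epithelial cells, 102, 1083 and 804 in WT and 522, 116 and 508 in A537T (-0.51 ± 0.98). In both, libraries 19 and 26 were the lowest of their groups, and the groups overlapped. miR-669c-5p (0.08 ± 0.42) and miR-676-5p (0.02 ± 0.22) differed by less than their standard errors.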

How the data were processed

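Small RNA libraries (Illumina TruSeq small RNA kit, NovaSeq, per the labels) of the ventral and lateral prostate lobes were analysed, 3 in each of 12 groups. The authors merged the read pairs with BBMerge, quantified them with mirDeep2 against GRCm38 and miRBase, summed miRNAs of identical sequence and deposited, for each comparison, normalised counts, a signal equal to the count divided by the DESeq2 size factor of the library. The tables were normalised separately, so levels are not compared between them. The deposited fold changes and s-values of the authors' own comparisons were not used. Column headers name libraries by number, and a library's group was taken from the tables that hold it. Values of 35 libraries were whole multiples of 1 read (100% of 92261 values, tolerance 0.01 reads), which gave the reads and depths; those of library 33, of KO at 10 weeks, could not be recovered.

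miRNAs whose normalised count averaged 10 or more were tested with limma 3.58.1 (variance trend, R 4.3.3) on log2(normalised count + 1), two-sided, with Benjamini-Hochberg adjustment over all miRNAs tested and a threshold of 0.05. The design was set for normalised values, and edgeR 4.0.16 (quasi-likelihood) and DESeq2 1.42.0 (Wald) on the recovered reads were alternatives. Differences of effects were limma contrasts over 12 libraries, and A537T was compared with KO over the 9 libraries of 30 weeks on joint median-of-ratios size factors. Each library was also left out in turn, and the pseudocount (10), the filter (none, or 100), the scaling (to the total) and the variance trend (none) were varied. Only the limma fit of the main comparison was tested on simulated counts, with the same dispersion for every miRNA and no libraries that stood apart. Positions and sequences came from the RefSeq miRNA table (GRCm38.p6), which held 467 of the 548 miRNAs, and overlaps from GENCODE M21, of the same build as the files.

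The comparison, the miRNA lists and the rule for named miRNAs were chosen with earlier results of these data known. Named were the 15 higher and 15 lower miRNAs with the smallest p, any that passed an adjusted p, the 10 most abundant, members of the lists and the miRNAs the study discusses. The study describes its replicates as biological, but the libraries are not tied to animals, so p-values measure the spread between these libraries. Counting limits cover counting error only.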

Additional observations from a re-analysis of the deposited data

Results flagged for a closer look

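miR-142a-3p was picked out because the A537T effect differed between backgrounds at 30 weeks in a test of the difference itself. The difference, TRAMP minus no TRAMP, was a log2 value of -1.19 (limma adjusted p = 0.0231 over 512 miRNAs). The call was lost without the filter, with scaling to the total, without the variance trend, with edgeR and in 9 of 12 fits with 1 library left out, with the value between -1.27 and -1.12 in those 12. It was kept with a pseudocount of 10 and with a mean of at least 100. All 3 A537T libraries exceeded all 3 WT libraries without TRAMP, and the groups overlapped with TRAMP.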

How the results depend on the processing

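No paired analysis was possible because the columns carry no replicate numbers. For A537T against WT, 0 miRNAs passed with a pseudocount of 10, without the filter, with a mean of at least 100, with scaling to the total, without the variance trend and with edgeR; DESeq2 called 5 (miR-135a-5p, miR-122-5p, both arms of miR-142a and miR-10a-3p) and edgeR over 35 libraries 3. Leaving out 1 library gave 0 to 13 calls, the 13 without A537T library 26, and leaving out both libraries 19 and 26 gave 223; this and the fit over 35 libraries were chosen after seeing the data. The difference of effects between ages gave 0 to 7 calls with 1 library left out, the 7 without library 26, and that between backgrounds 0 to 11, the 11 without library 19; there miR-142a-3p was called only without library 19, 20 or 26, and the 1 call without library 11 was miR-672-5p (-3.81). Between backgrounds, 0 calls were left without the filter, with scaling to the total, without the variance trend and with edgeR. A537T against KO gave 0 throughout. Most of the 46 miRNAs followed through the alternatives were picked for a small p in A537T against WT. Every alternative reused libraries of that comparison, so a kept direction is no further support. Of 680 log2 fold changes of these 46 miRNAs under the alternatives, 59 passed the adjusted test and 667 kept their direction. Those that reversed were miR-383-5p, which ranged from -1.59 to 0.01 with 1 library left out, miR-338-3p (-1.57 to 0.20), miR-669c-5p (-0.20 to 0.52), miR-676-5p (-0.08 to 0.10, and -0.06 with scaling to the total, -0.00 with edgeR and -0.06 with edgeR over 35 libraries) and miR-148a-3p (-0.40 to 0.18, and 0.26 without both libraries). The cause was not tested. Depth limits miRNAs near 10 normalised counts and the X-linked cluster, not the abundant ones.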

Other observations

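Across 35 libraries of all groups, the 6 pairs of miR-10a-5p, miR-10b-5p, miR-135a-5p and miR-881-3p (the most abundant miRNA of the X-linked cluster) correlated at 0.538 to 0.918, highest for miR-10a-5p with miR-881-3p, then at 0.853 for miR-135a-5p with miR-10b-5p and lowest for miR-135a-5p with miR-10a-5p, on log2 reads scaled to the library total, as a description over libraries that share groups and ages. These miRNAs were picked because they split the A537T libraries, which are among the 35, so part of the correlation follows from that choice. miR-881-3p had 0 reads in at least 1 library of A537T, KO and WT at 30 weeks. miR-10b-5p spanned 8.23-fold between the A537T libraries of 30 weeks, 7.03-fold in KO, 23.2-fold in KO-TRAMP and 2.32-fold in WT.

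Pairs of arms and clusters of miR-193b and miR-365 lay to the lower side. miR-193b-3p, of brown fat, counted 2572, 4462 and 3788 in WT and 1688, 5026 and 1066 in A537T, and miR-365-1-5p, from the same cluster, 197, 197 and 160 in WT and 78.8, 239 and 38.8 in A537T. For both, library 26 was the highest of the 6 libraries and libraries 25 and 27 the lowest, and 6 of the 7 miRNAs of this list were lower, with 0 at an unadjusted p under 0.05.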
